A study of Rattus norvegicus with 3 samples.

Results

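Gbp2 and the alpha-2u globulin LOC259245 were followed in rat liver on 3 spotted arrays read in 2 colours. They are 2 of the 5656 genes that the arrays carried. Both were chosen from their own measured values, as genes low in SHR at 1 month and close to WKY at 3 months, and their spots were found by gene symbol and description. The values of the strain arrays therefore describe the pair and carry no test. The SHR age array was not part of that choice, but it shares its RNA sources with the strain arrays, so its values are given as a description too.

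SHR, the spontaneously hypertensive rat, is the strain studied, and WKY, the Wistar Kyoto rat, is its normotensive reference strain. All animals were male, and all RNA was total RNA from whole liver. SHR liver was set against WKY liver at 1 month on 1 array and at 3 months on another, and SHR liver of 3 months against SHR liver of 1 month on the last. The WKY RNA was pooled from animals of the same age as the SHR. The sources used here give neither the number of animals behind an RNA nor whether the SHR RNA was pooled. Each comparison rested on a single array, without replicates or swapped dyes, and the 2 spots of a probe repeat only the printing and scanning.

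Guanylate binding proteins are large GTPases that cells make in response to interferon, above all interferon gamma. They gather on the membranes around intracellular pathogens and take part in cell-autonomous defence, and Gbp2 is one of the members that interferon gamma induces. Alpha-2u globulins are small secreted lipocalins, barrel-shaped proteins that carry lipid-like ligands. The liver of the adult male rat makes them in large amounts from puberty on and they pass into urine, where they bind pheromones. Androgen, growth hormone, glucocorticoid, thyroid hormone and insulin are known to act on their liver expression.

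The promoters of Gbp2 and of the related alpha-2u globulin Obp3 are shown because the interferon and hormone routes named above act on such sequences. RefSeq places the Gbp2 promoter at chr2:234005477-234005776 on the plus strand of GRCr8, from 250 bases before the start to 50 after. Capitals mark a match to the core of the interferon stimulated response element (GAAA, any 2 bases, then GAAA), read on the opposite strand.
Gbp2: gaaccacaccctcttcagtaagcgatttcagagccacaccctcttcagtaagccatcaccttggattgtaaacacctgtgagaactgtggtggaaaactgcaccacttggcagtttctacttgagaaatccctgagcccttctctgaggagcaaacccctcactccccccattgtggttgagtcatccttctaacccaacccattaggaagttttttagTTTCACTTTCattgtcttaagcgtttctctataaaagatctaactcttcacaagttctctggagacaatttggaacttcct
The match lies 31 bases before the start of Gbp2. Among 33465 rat promoters of 300 bases, 3.92% held such a match on either strand. LOC259245 is named only. Obp3, the other alpha-2u globulin that the arrays carried, has its promoter at chr5:79640626-79640925 on the minus strand of GRCr8. Capitals mark matches to TGTTCT, the repeated unit of the glucocorticoid response element, read on the opposite strand.
Obp3: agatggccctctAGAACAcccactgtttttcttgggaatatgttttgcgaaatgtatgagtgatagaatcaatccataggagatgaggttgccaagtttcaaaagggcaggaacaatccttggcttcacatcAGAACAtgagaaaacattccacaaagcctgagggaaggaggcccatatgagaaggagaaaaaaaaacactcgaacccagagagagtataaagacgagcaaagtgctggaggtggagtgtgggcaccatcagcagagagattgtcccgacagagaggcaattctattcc
Its 2 matches lie 238 and 118 bases before the start, and 20.7% of the same 33465 promoters held at least 1. The palindrome TTCNNNGAA, which STAT proteins bind, was not among the letters of either window, and 8.87% of promoters held it. These are matches of letters, with no binding measured here.

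The Gbp2 probe was designed on accession M80367 and lay in neighbouring columns of 1 subgrid. On the 1-month strain array its 2 spots had raw intensities of 680 and 842 in the SHR channel, against 2243 and 2716 in the WKY channel. On the 3-month strain array they had 1541 and 1613 in the SHR channel, against 2274 and 2422 in the WKY channel. On the SHR age array they had 1073 and 989 in the channel headed 3 months, against 895 and 848 in the channel headed 1 month. Both WKY values thus exceeded both SHR values at each age in raw intensity, by far more at 1 month than at 3 months. The SHR channel was the dimmer one across the array, with a median raw intensity of 2270 against 3405 in the WKY channel at 1 month. At 3 months it was 2162 against 3460. The ratios below are therefore relative to genes of like intensity on the same array. All Gbp2 values were at least 13.6 times their local background.

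**Figure D1:**
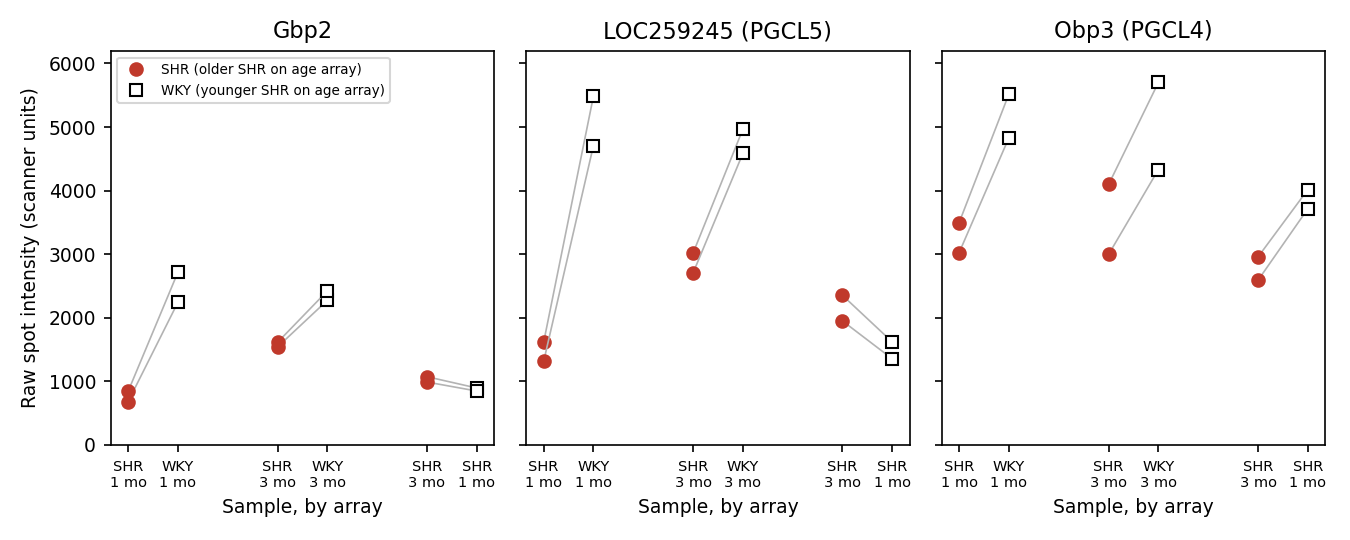
Raw spot intensity (linear axis, arbitrary scanner units) of Gbp2, LOC259245 and Obp3 in both channels of the 3 arrays. Each point is 1 of the 2 spots of the probe. The SHR spots of Gbp2 and LOC259245 lie far under the WKY spots at 1 month (680 and 842 against 2243 and 2716 for Gbp2), while those of Obp3 lie nearer to them (3026 and 3498 against 4835 and 5523).

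After correction for background and for the intensity trend between channels, the log2 ratio of SHR over WKY for Gbp2 at 1 month was -1.02, with -1.02 at either spot, a 2.02-fold lower level. At 3 months the ratio was 0.11, from 0.12 and 0.10, or 1.08-fold, and with median centring in place of loess it was -0.07. The SD between spots was 0.0019 and 0.017 log2 units, and pooled over all probes it was 0.056 at 1 month and 0.046 at 3 months. Gbp2 thus stood low in SHR at 1 month by many times the spread between spots, and at 3 months it stood 2.39 pooled SDs above 0. The strain ratio differed between the ages by 1.13 log2 units, rank 4 from the top of 5612 genes and rank 53 with median centring. Of these, 11 (0.196%) had a strain ratio at least 2-fold higher at 3 months than at 1 month and 3 (0.0535%) at least 2-fold lower. None of these values has a check between animals.

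The LOC259245 probe was designed on accession AB039827, described as alpha-2u globulin PGCL5. Its 2 spots had raw intensities of 1615 and 1313 in SHR of 1 month, against 5486 and 4709 in WKY of 1 month. At 3 months they had 3016 and 2704 in SHR, against 4967 and 4585 in WKY. On the SHR age array they had 2352 and 1950 in the channel headed 3 months, against 1619 and 1353 in the channel headed 1 month. The WKY values again lay above the SHR values at either age, and the raw distance was wider at 1 month.

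The log2 ratio of SHR over WKY for LOC259245 was -1.23 at 1 month, from -1.20 and -1.25 at the 2 spots, which is 2.34-fold lower. At 3 months it was -0.12, or 1.09-fold lower, with an SD of 0.015 between spots. The difference between the ages was 1.11 log2 units, rank 6 from the top of 5612 genes and rank 90 with median centring. The log2 ratio of Gbp2 minus that of LOC259245 was 0.21 log2 units at 1 month and 0.23 at 3 months.

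The arrays held 1 other alpha-2u globulin, PGCL4 on accession NM_147215, which RefSeq now names Obp3. Its raw intensities were 3026 and 3498 in SHR of 1 month, against 4835 and 5523 in WKY of 1 month, and 2997 and 4096 in SHR of 3 months, against 4331 and 5702 in WKY of 3 months. Its log2 ratios of SHR over WKY were -0.16 at 1 month and 0.07 at 3 months, the second turning to -0.08 with median centring. The ratio of LOC259245 was therefore 1.06 log2 units under that of Obp3 at 1 month and 0.19 under it at 3 months. Obp3 showed little of the strain difference that LOC259245 showed at 1 month, and its strain ratio differed between the ages by 0.24 log2 units, against 1.11 for LOC259245. Family members of this kind have closely similar transcripts. The probe sequences are not in the files used here, so how far either probe tells its target from other family members is uncertain.

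The 2-fold line at 1 month was passed downwards by 22 of 5650 genes (0.389%) and upwards by 0. Both members lie past it because they were chosen so. LOC259245 had the 7th lowest ratio and Gbp2 the 22nd lowest, so Gbp2 sat just inside the line, with Shank2 at -1.03 beside it and Ppib at -0.996 just outside. All 22 genes were also under 1.5-fold apart at 3 months, an age at which 4 genes (0.0712%) were at least 2-fold lower. Of the 22, however, 19 had a mean log2 intensity under 9, near the dim end of the arrays, where ratios spread widely below 0 at 1 month. Gbp2 and LOC259245 averaged log2 intensities of 10.5 and 11.4 over the arrays, and the cohesin subunit Smc1a was the other gene of the 22 at 10 or more, which makes 3 of 5610 genes (0.0535%). Smc1a rested on 1 spot, since its spots gave -0.19 and -2.78. Among the 3859 genes of intensity 10 or more, with or without a symbol, the next lowest after Gbp2 were Faim2 at -0.77, an inhibitor of death receptor signalling, Qsox1 at -0.73, a sulfhydryl oxidase, and Cyp2c7 at -0.71, a female-biased cytochrome P450.

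**Figure D2:**
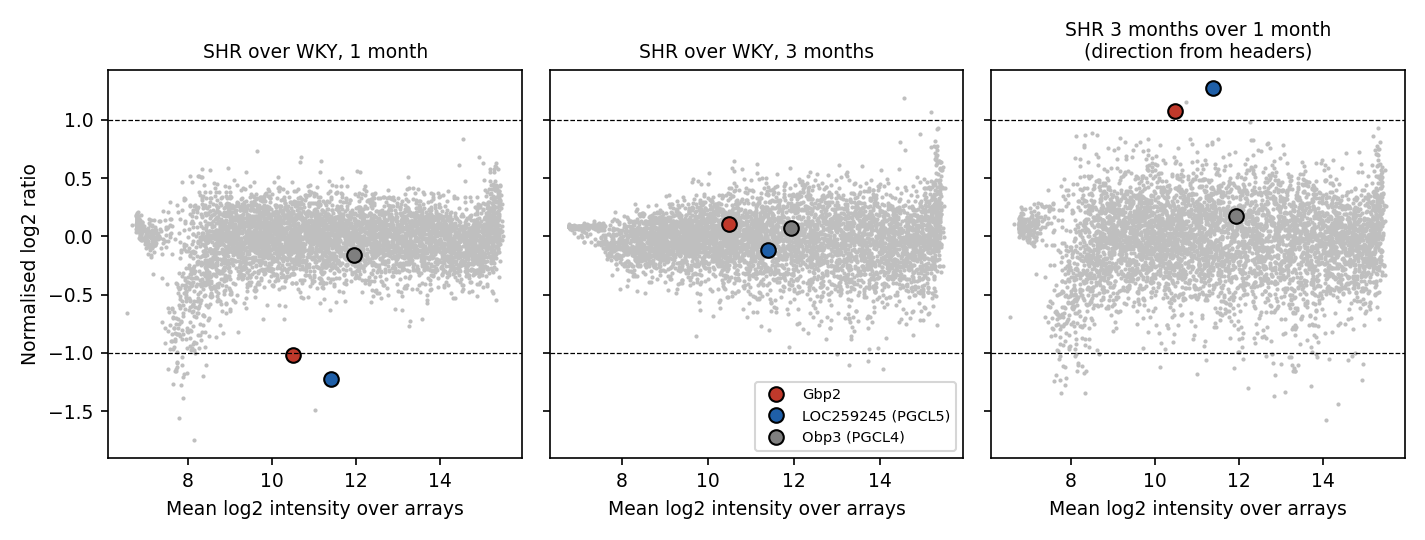
Normalised log2 ratio of each gene on the 3 arrays against its mean log2 intensity over the arrays. Grey points are genes, coloured points are Gbp2, LOC259245 and Obp3, and dashed lines mark 2-fold. At 1 month the dim genes tail off below 0 while Gbp2 (-1.02) and LOC259245 (-1.23) lie under the cloud of brighter genes, and at 3 months both lie within it (0.11 and -0.12).

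Set against genes within 0.25 log2 units of its own intensity, Gbp2 at 1 month lay below all 372, whose ratios ran from -0.60 to 0.51. At 3 months 318 of 425 such genes lay lower than Gbp2 and 107 higher. For LOC259245 at 1 month 1 of 338 genes of like intensity lay lower, and at 3 months 118 of 331 lay lower and 213 higher. Both members were chosen for their ratios on these 2 arrays, so their places among genes of like intensity follow largely from that choice. The 6 named genes nearest to Gbp2 in intensity at 1 month, among them the growth hormone signal transducer Stat5b at -0.11 and carboxypeptidase N subunit Cpn1 at -0.01, ran no lower than the kinase Mark3 at -0.40. The 6 nearest to LOC259245, among them Arnt, the dimer partner of the aryl hydrocarbon receptor, at -0.12, ran no lower than Cryaa at -0.27. The subgrid that holds LOC259245 had median log2 ratios of -0.00075 at 1 month and -0.061 at 3 months. The subgrid of Gbp2 had medians of -0.089 and 0.028, and normalising each subgrid on its own gave Gbp2 -0.95 at 1 month, short of 2-fold. The 14 spots printed around Gbp2 had a median of -0.18 at 1 month, from -1.10 to 0.02, so 1 or more lay lower than Gbp2. At 3 months their median was -0.08. The 28 spots around LOC259245 had medians of -0.008 and -0.015.

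**Figure D3:**
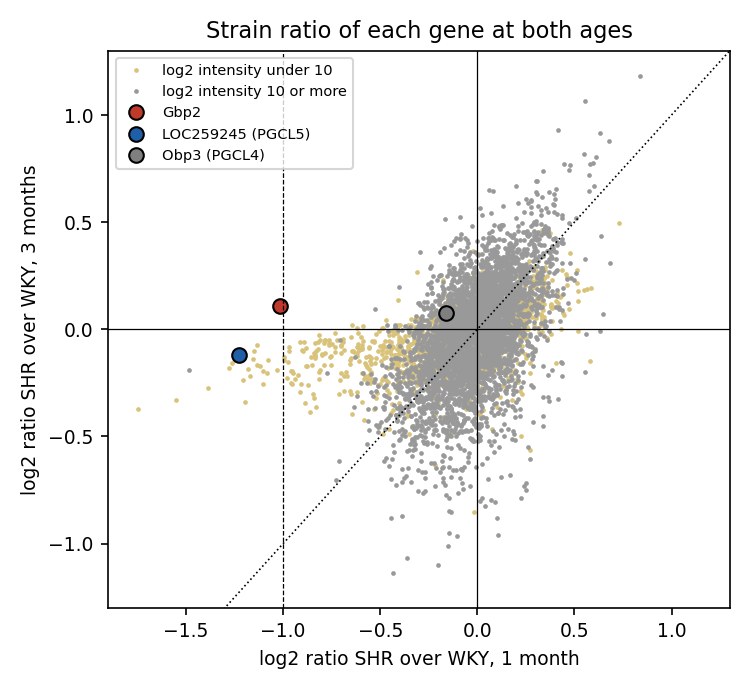
Log2 ratio of SHR over WKY at 1 month (x axis) against that at 3 months (y axis), 1 point per gene, with genes of mean log2 intensity under 10 in yellow. The dashed line marks 2-fold lower at 1 month and the dotted line equal ratios. Gbp2 and LOC259245 lie far left at -1.02 and -1.23 and near 0 in height at 0.11 and -0.12, among genes that are mostly dim, and Obp3 lies near the centre.

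On the SHR age array, taking the direction from the file headers, the log2 ratio of SHR at 3 months over SHR at 1 month was 1.07 for Gbp2, from 1.09 and 1.06 at the 2 spots. It was 1.27 for LOC259245, from 1.27 and 1.28. These were rank 3 and rank 1 from the top of 5652 genes, and 3 genes (0.0531%) reached 2-fold on that side, against 52 genes (0.92%) on the other. With median centring the ranks were 305 and 120, and with the authors' values 44 and 41. The gene between them was a probe with no symbol, on accession AF326113, described as a testis-specific transporter. It had 1.16 there, -0.53 for SHR over WKY at 1 month and 0.10 at 3 months, and is named after its values were seen. The folds were 2.10 and 2.42, and the pooled SD between spots was 0.052 log2 units. Obp3 had 0.18, with raw intensities of 2590 and 2957 in the channel headed 3 months against 3714 and 4016 in the channel headed 1 month. The channel headed 3 months was the dimmer one here too, with a median raw intensity of 1448 against 2405, so its raw values understate the ratio. LOC259245 lay above all 385 genes of like intensity, whose highest ratio was 0.83, and 1 of 399 lay above Gbp2.

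The direction of this array is not settled. In the file headers the second column bears the name of SHR at 3 months. The labels give Alexa647, the dye of SHR on the strain arrays, to SHR of 1 month, and the sources used here do not tell which dye that column holds. With the sign turned, the ratios of Gbp2, LOC259245 and Obp3 would be -1.07, -1.27 and -0.18. LOC259245 and Gbp2 would then have the lowest and the 3rd lowest ratio, with 3 genes at least 2-fold lower and 52 higher. The size of each ratio is the same either way.

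Of the 5610 genes with values on all 3 arrays, 22 (0.392%) were at least 2-fold lower at 1 month and under 1.5-fold apart at 3 months. Of these, 2 (0.0357%) were also at least 1.5-fold higher in SHR of 3 months than in SHR of 1 month, and they were Gbp2 and LOC259245. That count rests on the headers' direction, under which 19 of the 22 (0.339% of all) were at least 1.5-fold lower on the age array. With the sign turned those 19 would be the higher ones and the pair would not be among them. The 1-month strain array and the age array share SHR RNA of 1 month, so a low value of that RNA enters both. A ratio of WKY at 3 months over WKY at 1 month was not measured, but follows from the 3 arrays if the same SHR RNA was used throughout. So computed, it was -0.05 log2 units for Gbp2, 0.17 for LOC259245 and -0.06 for Obp3. Over 11 other ways of processing it ran from -0.23 to 0.11 for Gbp2, from -0.0076 to 0.18 for LOC259245 and from -0.098 to 0.087 for Obp3, so none of the 3 has a settled sign. With the age array turned, these became -2.20, -2.38 and -0.41. Under the headers' direction, then, the pair had a computed WKY ratio near 0 beside an SHR ratio past 2-fold, and under the other direction it was lower at 3 months in both strains.

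The gene nearest to either member over the 3 ratios was the other member, at a Euclidean distance of 0.37 log2 units among 4258 candidate genes with a symbol over 3 arrays. The choice of the pair bears on this, since it used 2 of the 3 ratios. The probe without a symbol on AF326113, outside these candidates, stood at 0.50 from Gbp2 and 0.74 from LOC259245. The next gene with a symbol, for both, was the chemokine Ccl28, at 0.86 from Gbp2 and 1.12 from LOC259245, with ratios of -0.45 at 1 month, -0.14 at 3 months and 0.47 on the age array. Snrpb, a core protein of the spliceosome, followed at 0.90 and 1.14, with -0.82, -0.06 and 0.21. Psmb3, a proteasome subunit, stood at 0.91 and 1.22, the semaphorin Sema4f at 0.94 and 1.20, and the nuclease Dnase2b at 0.94 and 1.21. Each of these lay farther from the pair than its members lay from each other.

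Other interferon genes had ratios nearer to 0 than Gbp2 at 1 month, except RT1Aw2, which had a dim probe. Gbp2 was chosen for a low ratio there and was 22nd lowest of 5650 genes, so nearly all genes lay nearer to 0 or above it. Of 16 listed guanylate binding proteins and interferon-induced GTPases, 2 were measured, and the other one was Mx1, an antiviral GTPase induced by type I interferon. Mx1 had log2 ratios of SHR over WKY of 0.31 at 1 month and 0.12 at 3 months, and 0.12 on the age array. Of 16 measured genes among 41 other interferon-induced ones, 8 lay above and 8 below 0 at 1 month, with a median of 0.01, against -0.01 over all genes, that fell below 0 in 3 of 10 other processing settings. None was 1.5-fold higher and 1 was 1.5-fold lower, the adhesion molecule Icam1 at -0.80, a dim probe of log2 intensity 7.85. Across the array 0.195% of genes were 1.5-fold higher and 2.42% lower. The interferon gamma induced chemokine Cxcl10 had -0.37 at 1 month and -0.25 at 3 months, and its relative Cxcl9 had -0.13 and -0.42. At 3 months the median of the list was -0.03, with 7 genes above and 9 below 0 and the antiviral protein Ifit1 at -0.42.

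Of the interferon ligands, receptors and signalling proteins, 15 of 29 were measured, and 0 of them were 1.5-fold apart at 1 month. Over all genes 2.42% were 1.5-fold lower and 0.195% higher at that age, so 0 is near these shares. The 1-month median was 0.05 and the 3-month median 0.07. The receptor subunit Ifngr1, through which interferon gamma acts, had 0.26 and 0.27. The kinase Jak2 had -0.18 and -0.71, the 1 member past 1.5-fold at 3 months, where 1.5% of all genes were 1.5-fold lower and 0.605% higher. Of the inhibitors, Socs3 had 0.12 and -0.18, and the phosphatase Ptpn2 had 0.05 and -0.20. Interferon gamma itself, Ifng, had 0.12 and 0.08, at the dim end of the array.

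Of 36 genes of the major histocompatibility complex and of antigen processing, which interferon also induces, 11 were measured. The 1-month median was -0.07, with 4 above and 7 below 0, and the 3-month median was 0.04, with 8 above and 3 below. The class I gene RT1Aw2 had -1.15 at 1 month and -0.14 at 3 months, the same order as Gbp2 on the strain arrays, but -0.99 on the age array, where Gbp2 had 1.07. Its log2 intensity of 7.71 was among the dimmest. The proteasome activator subunit Psme1 had 0.15 and 0.31, the peptide transporter subunit Tap1 had -0.15 and 0.04, and the immunoproteasome subunit Psmb8 had 0.21 and 0.16.

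**Figure D4:**
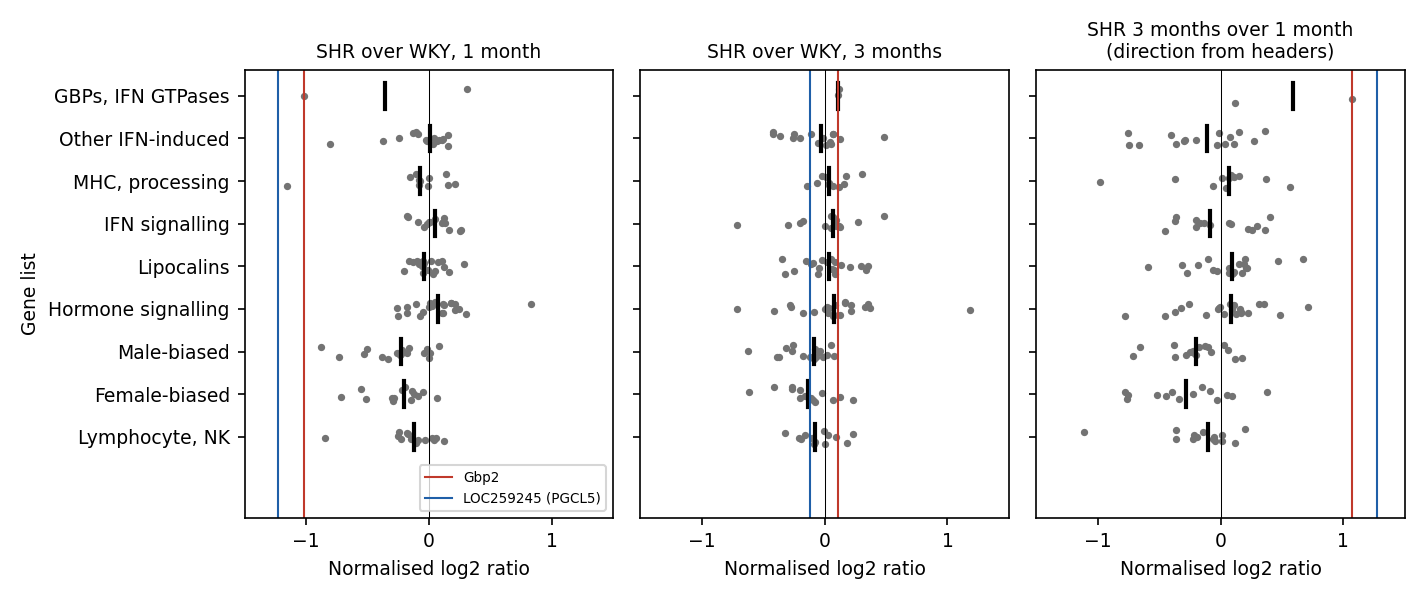
Normalised log2 ratio of each measured gene of 9 lists on the 3 arrays, 1 grey point per gene, with the median of each list as a black bar. The red and blue lines mark Gbp2 and LOC259245. At 1 month nearly all points lie to the right of both lines, which mark genes chosen for low values there. Medians run from -0.22 to 0.08 in the lists of 11 or more genes.

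For LOC259245 the lists were its protein family, the hormone routes known to act on alpha-2u globulin, and genes that differ between male and female rat liver. Of 29 lipocalins and related carriers, 20 were measured. Their median ratio of SHR over WKY was -0.04 at the younger age and 0.03 at the older, the first above 0 in 2 of 10 other settings. On either strain array 0 of the 20 were 1.5-fold apart. Over all genes 2.42% were 1.5-fold lower and 0.195% higher at 1 month, and 1.5% and 0.605% at 3 months, so 0 is near these shares. The retinoid and fatty acid carriers at the ends of the list's range at 3 months were Fabp5 at 0.35 and Rbp2 at 0.34, against prostaglandin D synthase Ptgds at -0.35 and Apod at -0.32. On the age array Lcn5, an epididymal retinoid carrier, had 0.67 and passed 1.5-fold, as did 2.07% of all genes, and Apod had -0.59, past 1.5-fold on the other side, as did 5.4%.

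Of 24 hormone receptors and signalling genes, 22 were measured, and their median was 0.08 in the younger and 0.07 in the older rats. Cish, the growth hormone induced inhibitor of STAT5, had 0.84 at 1 month and 1.18 at 3 months, 1 of the 2 genes (0.0356%) at least 2-fold higher in SHR at that age, with the folate enzyme Aldh1l1. The growth hormone receptor Ghr had 0.18 and 0.12, and Stat5b, which carries the growth hormone signal, -0.11 and 0.02. The glucocorticoid receptor Nr3c1 had 0.25 at 1 month and 0.35 at 3 months. The insulin receptor Insr had -0.00077 and 0.08, and the prolactin receptor Prlr -0.05 and -0.41. Of the 22 measured genes, 0 were 1.5-fold lower at 1 month, which is near the share of 2.42% over all genes.

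Male-biased liver genes, the class to which alpha-2u globulin belongs, had a 1-month median of -0.22, below 0 in 14 of 17 measured genes, where 47.5% of all genes lay above 0. At 3 months the median was -0.09, again with 14 of 17 below 0, where 47.0% of all genes lay above 0. On the age array, under the headers' direction, the median was -0.20, with 4 genes above and 13 below 0. There 48.8% of all genes lay above 0, and LOC259245 had 1.27, the opposite sign to the list's median. The 2 that were 1.5-fold lower at 1 month, as were 2.42% of all genes, were steroid reductase Srd5a2 at -0.88 and the trypsin inhibitor Spink1 at -0.73. Both had log2 intensities under 8. The growth hormone dependent cytochrome Cyp2c11, the best known male-specific P450 of rat liver, had -0.22 at 1 month and -0.09 at 3 months. The desaturase Scd had -0.53 and -0.37, the sulfotransferase Sult1c2 -0.50 and -0.26, and the hydroxyacid oxidase Hao2 -0.22 and -0.62. Female-biased genes lay below 0 as well, with medians of -0.20 at 1 month and -0.14 at 3 months, 13 of 14 and 11 of 14 of them below 0. Cyp2c7 had -0.71 at 1 month and -0.61 at 3 months, the flavin monooxygenase Fmo1 -0.51 and -0.27, and the acyltransferase Gpam -0.55 and -0.20. Neither list had a member as far below 0 at 1 month as LOC259245. That gene was chosen for a low value there and was 7th lowest of 5650 genes, so few genes of any kind lay lower.

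Whole liver holds immune cells that express Gbp2, and in bulk RNA fewer cells of a type and less RNA per cell cannot be told apart. Over all genes 47.5% lay above 0 at 1 month and 47.0% at 3 months. Markers of lymphocytes and NK cells were measured for 14 of 22 genes, and 10 of 14 lay below 0 at 1 month, with a median of -0.12. Their summed signal was 0.119% of the array's in SHR against 0.156% in WKY at 1 month, and 0.145% in SHR against 0.178% in WKY at 3 months. On the age array it was 0.124% in SHR of 3 months against 0.163% in SHR of 1 month, opposite in order to Gbp2 under the headers' direction. The activating receptor Klrk1 of NK cells had -0.84 at 1 month on a dim probe, while the T cell receptor component Cd3d had -0.14 and the NK receptor Ncr1 -0.10. Of the markers of Kupffer and myeloid cells 6 of 15 were measured, and 5 of 6 lay below 0 at either age, with medians of -0.12 at 1 month and -0.16 at 3 months. The first was 0.01 at its highest over 10 other settings. Their summed signal was 0.153% in SHR against 0.174% in WKY at 1 month, and 0.155% in SHR against 0.178% in WKY at 3 months. The Kupffer cell lectin Clec4f had -0.28 and -0.46, while lysozyme Lyz2 had 0.40 and 0.42. Sums of other markers were mostly lower on that side too. The side of SHR, or of SHR of 3 months on the age array, was the dimmer channel on every array. A difference between samples and one between channels cannot be told apart in these sums. Hepatocyte markers had 0.257% in SHR against 0.265% in WKY at 1 month and 0.220% against 0.248% at 3 months. On the age array they had 0.229% in SHR of 3 months against 0.259% in SHR of 1 month. Red cell markers went the other way at 3 months, with 0.0570% in SHR against 0.0564% in WKY. The lower sums were thus not particular to immune cells. The part of immune cells in the Gbp2 ratio was not tested. Markers of hepatocytes, the source of alpha-2u globulin in liver, were above background in both channels on all 3 arrays for all 15 measured genes, with medians of 0.03 at 1 month and 0.02 at 3 months, the second at -0.11 with median centring. At both ages 8 of 15 lay above 0 and 7 below. Signal above background was not particular to hepatocyte markers. All 6 measured kidney markers and all 11 markers of stellate cells and fibroblasts had it on all 3 arrays too. Albumin, Alb, had -0.15 at 1 month and -1.01 at 3 months, 1 of the 4 genes at least 2-fold lower at that age, and -1.10 on the age array. The iron carrier transferrin, Tf, had -0.99 on the age array, and the protease inhibitor Serpina1 had -0.71 at 1 month. The part of these shifts in the LOC259245 ratio was not tested. Kidney markers had medians of -0.07 and 0.09 over 6 genes. Their summed signal was 0.0404% in SHR against 0.0583% in WKY at 1 month, and 0.0388% against 0.0525% at 3 months. On the age array it was 0.0312% in SHR of 3 months against 0.0443% in SHR of 1 month.

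The values held over most processing choices. Over 11 other ways of processing the same raw values or taking the authors' own, Gbp2 at 1 month ran from -1.19 to -0.95 and passed 2-fold in 9 of 11. LOC259245 ran from -1.29 to -1.20 and passed it in 11 of 11. Some of these settings add little to that tally. Asking for signal in both channels, keeping all spots, or leaving spots of bright background out of the fit gave the reported 1-month values again. Each spot taken alone is a part of the reported mean. In the authors' deposited table the log2 values at 1 month were -0.9955 and -0.9878 at the spots of Gbp2 and -1.2117 and -1.2806 at those of LOC259245. At 3 months the authors' deposited table had 0.1135 and 0.0859 for Gbp2 and -0.0372 and -0.0600 for LOC259245.

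**Figure D5:**
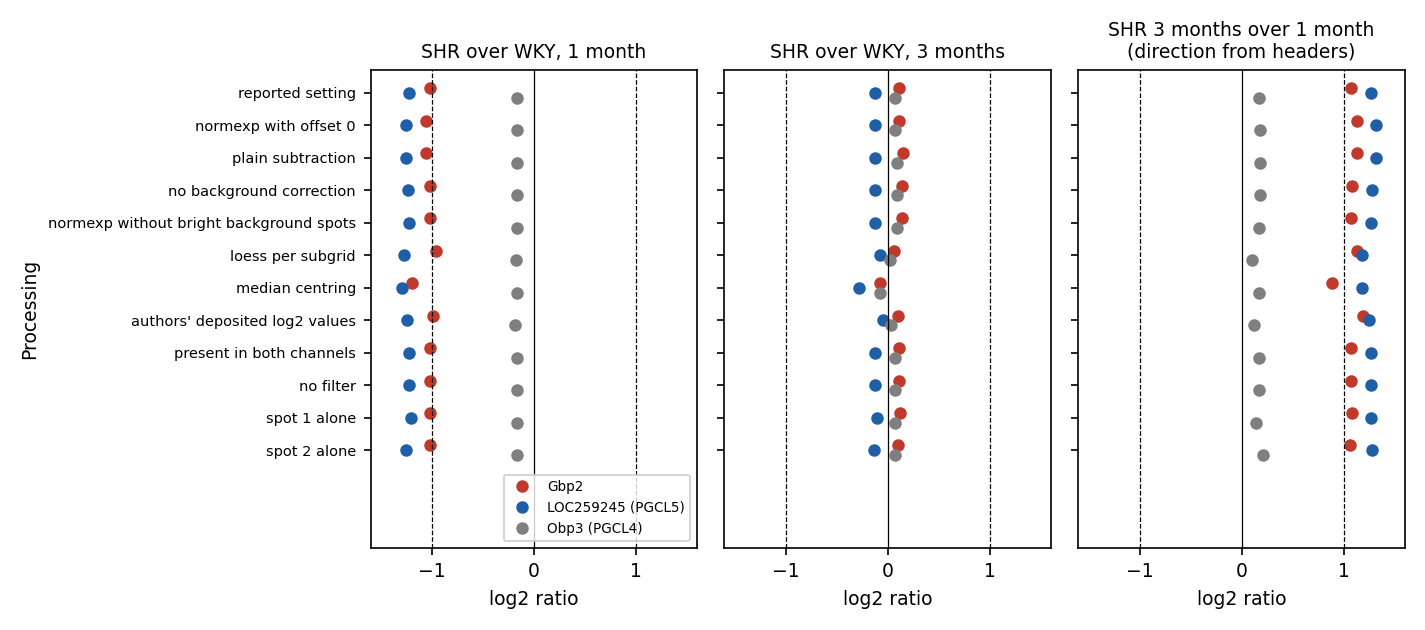
Log2 ratio of Gbp2, LOC259245 and Obp3 on each array under the reported processing and 11 others, 1 row per setting, with dashed lines at 2-fold. Gbp2 stays between -1.19 and -0.95 and LOC259245 between -1.29 and -1.20 at 1 month, and at 3 months the lowest value of any of the 3 genes is -0.28.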

How the data were processed

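Per the labels' protocols, 10 µg of total RNA from each liver sample was copied into cDNA with Alexa555 or Alexa647 and hybridised in pairs. The authors deposited, per the file headers, a raw intensity and a local background for each channel of 12288 spots, 894 of them empty or unnamed, and the ratio of net intensities, first over second channel. At the spots of Gbp2, LOC259245 and Obp3 the second channel's net intensity exceeded raw intensity less background, so it had already been rescaled. At spot 1 of Gbp2 on the 1-month array it was 1127, from a raw 680 and a background of 50. A further deposited table holds the authors' log2 values, of unstated scale, centring and direction. Set against the deposited net intensities, they lay close to log2 of the second over the first channel at the median spot. The median absolute difference was 0.00157, 0.00322 and 0.0035 on the 1-month, 3-month and age array. Their correlation with that log2 ratio was 0.756, 0.688 and 0.823, so some spots did not match. Their medians were -0.00495, 0.005 and 0.0008. The sources used here do not name the quantification software.

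Raw intensities were corrected with normexp (offset 50) and normalised by global loess (span 0.3) in limma 3.58.1 (R 4.3.3). Median log2 ratios were -0.51, -0.36 and -0.65 before this step. Spots 2 SD above background in at least 1 channel were kept, the 2 spots of a probe were averaged, and the brightest probe stood for a gene. This gave 5650, 5617 and 5652 genes. Names came from RefSeq (GRCr8), by accession for 2728 probes, by symbol for 1052 and by synonym for 521, while 156 kept the file's symbol and 1240 had none. Later steps used Python 3.11.15, numpy 2.4.6, pandas 2.3.3 and matplotlib 3.10.9.

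As each comparison rests on a single array, no test was run, and the number of arrays limits the precision. The steps were tested on simulated data. A true log2 change of 1 was recovered with a median of 0.88, 0.88 and 0.87 on the 1-month, 3-month and age array. At middle intensities the medians were 0.92, 0.94 and 0.93, so the steps made such changes somewhat smaller. The members and gene lists were chosen with earlier results of these data known. Genes named were the members, the other alpha-2u globulin, the interferon-induced GTPases, up to 5 genes of each list with the largest ratios, and the 6 nearest to each member in pattern and in intensity. Other list genes, neighbours of the threshold and the low bright genes were named after their values were seen.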

Additional observations from a re-analysis of the deposited data

Results flagged for a closer look

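Of the 65 measured genes named in the text, 5 had a strain ratio below 0 at one age and above 0 at the other. Each of these ratios was farther from 0 than 2 pooled SDs between spots. Some of the 65 were named for their values or their nearness to the pair. The share of all genes that meet this rule was not counted, so the 5 are listed only as a description. For Gbp2 the log2 ratio of SHR over WKY was -1.02 at 1 month and 0.11 at 3 months, a difference of 1.13. Gbp2 was chosen for this pattern, and its 3-month ratio was -0.074 with median centring, so its sign there is not settled. For the probe without a symbol on AF326113 the ratio was -0.53 at 1 month and 0.10 at 3 months, a difference of 0.62. For Psmb3, a proteasome subunit that was among the genes nearest to the pair, it was -0.23 at 1 month and 0.11 at 3 months, a difference of 0.35. For Pdlim5, the measured gene next to Gbp2 on one side, it was -0.13 at 1 month and 0.20 at 3 months, a difference of 0.33. For Socs3, an inhibitor of cytokine signalling, it was 0.12 at 1 month and -0.18 at 3 months, a difference of -0.29. With 1 array at each age, none of these differences was tested.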

How the results depend on the processing

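No paired analysis was possible because each comparison has 1 array and the labels number no replicates, and for the same reason no replicate could be left out. Loess within each subgrid gave Gbp2 -0.95 at 1 month, 1.13 on the age array and 1.02 for the difference between ages, and LOC259245 1.19 on the age array and 1.19 for the difference. Median centring, which keeps the intensity trend, gave Gbp2 -1.19 at 1 month, -0.074 at 3 months and 0.89 on the age array, and LOC259245 -1.29, -0.28 and 1.18 there and 1.01 for the difference. The Gbp2 ratio at 3 months thus has no settled sign, and that of Obp3 turned to -0.08 under the same setting. Normexp with an offset of 0 gave Gbp2 1.14 on the age array, and plain subtraction gave 1.14 there and 1.21 for the difference. In the authors' deposited table Gbp2 had 1.19 on the age array, and LOC259245 had -0.049 at 3 months and 1.20 for the difference. With the age array turned, Gbp2 had -1.07 and LOC259245 -1.27.

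Counts of genes at least 2-fold apart depended more on the processing than the members did. At 1 month 22 genes were lower as reported, against 77 with an offset of 0, 71 with plain subtraction, 65 with median centring and 74 with the authors' values. The remaining settings gave 22 to 27. At the same age 0 were higher as reported, against 0 to 152 in other settings. At 3 months 4 were lower as reported, against 1 to 91, and 2 were higher, against 1 to 106. On the age array 52 were lower as reported and 3 higher, against up to 129 and 215. The ranks of the members moved with these counts. Gbp2 was 22nd lowest at 1 month as reported, 66th with an offset of 0 and 77th with the authors' values, and LOC259245 7th, 41st and 58th. On the age array Gbp2 was 3rd highest and LOC259245 1st as reported, against 305th and 120th with median centring and 44th and 41st with the authors' values. For the difference between ages they were 4th and 6th as reported, against 53rd and 90th with median centring and 31st and 37th with an offset of 0.

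Medians of lists near 0 changed sign with the processing, as for other interferon-induced genes at 1 month in 3 of 10 settings and for lipocalins at 1 month in 2 of 10, while the male-biased and female-biased medians stayed below 0 on both strain arrays in 10 of 10. Dim probes limit the tail of low ratios at 1 month, and no value here carries the spread between animals.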

Other observations

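In RefSeq's order of genes (GRCr8), Gbp2 lies on chromosome 2 among 8 guanylate binding protein genes, 2 of them pseudogenes, including Gbp1, Gbp3, Gbp4, Gbp5 and Gbp7, of which 1 was on the arrays. The nearest measured genes on either side, with 5 and 9 unmeasured genes between, were the cytoskeletal adaptor Pdlim5 and the general transcription factor Gtf2b. Pdlim5 had log2 ratios of SHR over WKY of -0.13 at 1 month and 0.20 at 3 months, and Gtf2b had 0.34 and 0.06. Over the 10 nearest measured genes the 1-month ratios ran from -0.20 to 0.37, against -1.02 for Gbp2 itself, which was chosen for a low value.

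Obp3 lies on chromosome 5 in a cluster of 15 alpha-2u globulin and related genes, 8 of them pseudogenes, of which 1 was on the arrays. The nearest measured genes on either side, with 13 and 33 genes between, were the splicing regulator Ptbp3 and the zinc finger gene Zfp37. Ptbp3 had -1.55 at 1 month, -0.33 at 3 months and -1.34 on the age array, and Zfp37 had -0.79, -0.05 and -0.80. Both probes were dim, with log2 intensities of 7.78 and 7.75, and of the 22 genes at least 2-fold lower at 1 month, 19 of them of a log2 intensity under 9, 20 were below 0 on the age array too. Both were low at 1 month, where Obp3 between them had -0.16, and on the age array both had the sign opposite to that of LOC259245. The place of LOC259245 in this cluster was not looked up, since the table used here does not list it.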
